A study of Mus musculus with 6 samples.

Results

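Amino acid transporter genes were described in mouse lung squamous cell carcinoma biopsies, with and without expression of a mutant NSD3. The genes were chosen by symbol: those named SLC1A, SLC3A, SLC7A, SLC36A, SLC38A or SLC43A followed by a number, which gave 42 of the 46937 gene symbols in the count table. SLC7A6OS, SLC36A1OS and SLC36A3OS, which lie on the opposite strand of a transporter gene, were left out. The control tumours, called PSC (3 libraries), carry a deletion of CDKN2A/B (Cdkn2a/bKO), overexpression of SOX2 (Sox2OE) and an active PI3K allele (Pik3ca H1047R), with NSD3 labelled as wild type. PSCN tumours (3 libraries) carry these 3 alterations too, with NSD3 T1242A added, which is a mutated histone H3 lysine methyltransferase. The promoter or recombinase behind these alleles, the age of the mice and whether each biopsy came from a separate mouse are not given in the sources used here. The p-values therefore measure the spread between these 6 samples alone, which may be technical.

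Cells take up amino acids through membrane carriers that are grouped into solute carrier families by sequence. SLC1A proteins move glutamate, aspartate or small neutral amino acids with sodium, SLC38A proteins move glutamine and other neutral amino acids with sodium, and some SLC36A proteins use protons. Part of the SLC7A family are light chains that reach the cell surface only when joined to a heavy chain of the SLC3A family, and others carry arginine and lysine on their own. Several of these genes are induced by the transcription factor ATF4 when amino acids are scarce, and leucine, arginine and glutamine in turn feed the growth kinase mTORC1.

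Total counts per library ranged from 69563622 to 72807077. NSD3 stood at 79.7 to 101.7 CPM (counts per 1000000 counts of the library, after TMM adjustment) in PSC against 820.7 to 1932 CPM in PSCN, so its level follows the labels. The squamous keratins KRT5 and KRT14 were present in each library, but lowest in PSC library 1, at 52.1 and 44.7 CPM against 2678 CPM or more and 2099 CPM or more in the PSCN libraries. PSC library 3 correlated better with the PSCN libraries (mean r of log2 CPM 0.941, across genes, which are not independent replicates) than with the other PSC libraries (0.908). XIST had 1088 and 1034 CPM for PSC libraries 2 and 3, which were taken as female, and at most 2.4 CPM in the other 4, taken as male. No other gene was used for sex, and since every PSCN library was taken as male, sex and genotype cannot be fully told apart. Several results that rest on PSC library 3 are given below with and without it.

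No transporter gene passed the test, and neither did NSD3 itself (log2 fold change 3.72, SE 0.41, adjusted p = 0.137 with edgeR). Of the 42 genes, 34 had enough counts to be tested, and 0 were past an adjusted p of 0.05 in either direction with edgeR's quasi-likelihood test, where 0.00472% of the 21201 genes tested were called higher and 0.0% lower. With an unadjusted p below 0.05 came 2 higher members, SLC38A2 and SLC7A5, and 8 lower ones (SLC38A1, SLC38A3, SLC38A5, SLC38A11, SLC1A2, SLC1A3, SLC1A5 and SLC7A14), against 9.48% and 12.2% of all genes tested. Every PSCN library lay above every PSC library in 3 members (SLC38A2, SLC7A1 and SLC7A8) and below in 9 (all of those just named but SLC38A5, and also SLC3A1 and SLC7A2), against 15.2% and 13.4% of all genes tested. Log2 fold changes of PSCN over PSC were positive in 10 and negative in 24 tested members, with a median of -0.29, where 49.1% of all genes tested were positive and their median was -0.01. It was below -1 in 12 members and below -2 in 5, against 15.7% and 6.82% of all genes tested. Without PSC library 3 the groups did not overlap in 4 members above and 17 below (27.4% and 27.9% of all genes), and without PSCN library 1 in 4 above and 18 below (21.7% and 22.0%). The Wald test of DESeq2 called 0 members higher and 7 lower (5.42% and 8.89% of all genes), and limma-voom with sample quality weights called 0 higher and 5 lower (8.43% and 5.84%). The weights were lowest for PSC library 3 (0.364) and highest for PSC library 2 (2.92). The weighted fit thus relied little on PSC library 3, much like edgeR without it. On simulated counts DESeq2 made many more calls of unchanged genes than edgeR or limma-voom did, but it also found more of the changed ones. The simulated spread came from edgeR's own fit, without a library as unlike its group as PSC library 3. The adjusted p-values in the authors' deposited table also come from DESeq2. Leaving out PSC library 3, edgeR called 0 higher and 4 lower (3.39% and 5.4%). In the authors' deposited table, 35 members have an adjusted p, and 0 higher and 7 lower ones are under 0.05 (3.92% and 8.1% of all genes with a value).

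The 8 members that were not tested had few or no reads. SLC7A9, the cystine carrier of kidney and gut, and SLC7A12 had 0 counts in all 6 libraries. SLC1A6, SLC1A7, SLC7A13, SLC7A15, SLC36A3 and SLC38A8 had at most 32 counts in any library, the highest being SLC1A7 in PSC library 1. For SLC7A9 and SLC7A12, a count of 0 allows up to 3 reads per library by counting error, so they were not detectable at this depth rather than shown to be absent.

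**Figure D1:**
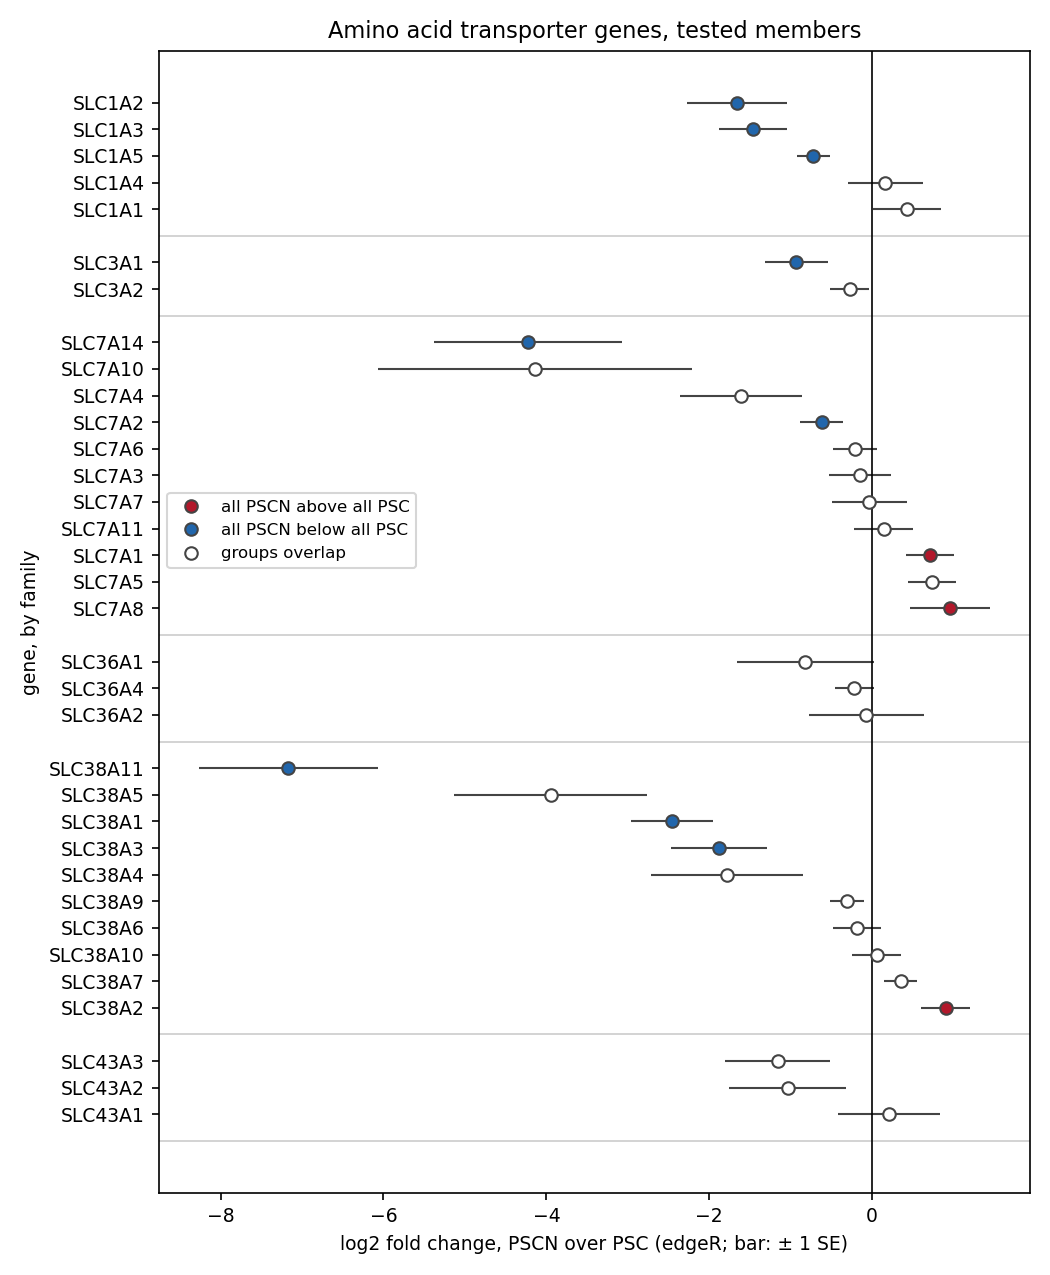
Log2 fold change of PSCN over PSC for each of the 34 tested transporter genes, grouped by family, with bars of 1 SE from edgeR. Filled points mark the 3 genes with all PSCN libraries above all PSC libraries (red) and the 9 with all below (blue), and SLC38A11 lies farthest from 0 at -7.17.

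The SLC38A family held the most negative fold change, that of SLC38A11, and also SLC38A2, the higher member of smallest p. SLC38A2 and SLC38A1 both carry glutamine, alanine and serine with sodium at the cell surface (system A), and their genes are neighbours on chromosome 15 of GRCm38, SLC38A1 at 96571418 to 96642913 and SLC38A2 at 96687392 to 96699730. The level of SLC38A2 was 151.5, 159.7 and 218.5 CPM for PSC libraries 1, 2 and 3 against 259.3, 467.9 and 264.8 CPM in PSCN libraries 1, 2 and 3. All PSCN libraries were above all PSC libraries, with PSC library 3 nearest to PSCN and PSCN library 2 highest. The log2 fold change was 0.91 (SE 0.30, unadjusted p = 0.0237, adjusted p = 0.196 with edgeR). It was 0.53 without PSCN library 2 and 1.10 without PSC library 3.

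SLC38A1 ran the other way, at 110.8, 70.2 and 31.8 CPM in PSC against 17.8, 9.52 and 11.5 in PSCN. The groups did not overlap, and PSC library 3 was the lowest of its group. Its mean was 71 ± 39.5 CPM in PSC against 12.9 ± 4.3 in PSCN (SD of 3 libraries each), a log2 fold change of -2.46 (SE 0.51, adjusted p = 0.173 with edgeR). DESeq2 gave an adjusted p of 0.000229, limma-voom with weights 0.0352 and edgeR without PSC library 3 0.0403, within a range of 0.000229 to 0.438 over 14 alternatives. Reads of SLC38A2 outnumbered those of SLC38A1 by 1.37, 2.27 and 6.86 times in PSC libraries 1, 2 and 3 against 14.6, 49.2 and 23.0 times in PSCN libraries 1, 2 and 3. Per kilobase of exon, SLC38A2 made up 67.4, 77.0 and 92.0% of the 3 system A genes in PSC against 94.4, 98.6 and 97.4% in PSCN. These ratios, chosen after the levels were seen, do not depend on library scaling. SLC38A4, the third system A gene and the next transporter along the chromosome (96994820 to 97055956), stood at 7.91, 5.68 and 1.29 CPM in PSC against 3.05, 0.773 and 0.502 in PSCN, so the groups overlapped (log2 fold change -1.78, SE 0.93, or -2.94 without PSCN library 1).

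SLC38A11, an amino acid carrier of poorly known substrate on chromosome 2 (65316430 to 65364034), had the largest difference of all tested members. It stood at 17.5, 13.3 and 1.39 CPM in PSC, and 5, 4 and 6 reads in PSCN libraries 1, 2 and 3 gave 0.0729, 0.0618 and 0.0837 CPM. The lowest PSC library, again library 3, had 102 reads and was still above all of PSCN. The log2 fold change was -7.17 (SE 1.10, adjusted p = 0.137 with edgeR). DESeq2 gave an adjusted p of 1.7e-11, limma-voom with weights 0.0367 and edgeR without PSC library 3 0.0302, in a range of 1.7e-11 to 0.421 over 14 alternatives.

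SLC38A3 and SLC38A5, the system N carriers that move glutamine and histidine with sodium and against protons, were low in PSCN. SLC38A5 stood at 7.73, 8.97 and 0.422 CPM in PSC against 0.219, 0.664 and 0.223 in PSCN, so PSC library 3 lay among the PSCN libraries. SLC38A5 lies on the X chromosome, and PSC libraries 2 and 3, which were both taken as female, are the highest and the lowest of their group. Its log2 fold change was -3.95 (SE 1.18, adjusted p = 0.191 with edgeR), and the adjusted p without PSC library 3 was 0.0403. SLC38A3 was at 0.396 to 1.23 CPM in PSC against 0.112 to 0.277 in PSCN (log2 fold change -1.88, SE 0.59), with no overlap and at most 90 reads in a library. Both were called by DESeq2, with adjusted p of 0.00449 and 0.0404, and the ranges over 13 alternatives were 0.00449 to 0.438 and 0.0404 to 0.438.

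The SLC38A members of the lysosome and of unsettled function had smaller fold changes. SLC38A9, the lysosomal arginine sensor that signals to mTORC1, stood at 18.2, 18.8 and 14.4 CPM in PSC against 16.5, 12.9 and 12.1 in PSCN (log2 fold change -0.31, SE 0.21). SLC38A7, which exports glutamine and asparagine from lysosomes, stood at 20.7 ± 1.77 CPM in PSC against 26.4 ± 5.64 in PSCN (SD of 3 libraries each). SLC38A6 and SLC38A10 had log2 fold changes of -0.19 (SE 0.29) and 0.06 (SE 0.30). The groups overlapped in all 4 genes, and the direction of SLC38A6 and SLC38A10 changed when a library was left out.

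**Figure D2:**
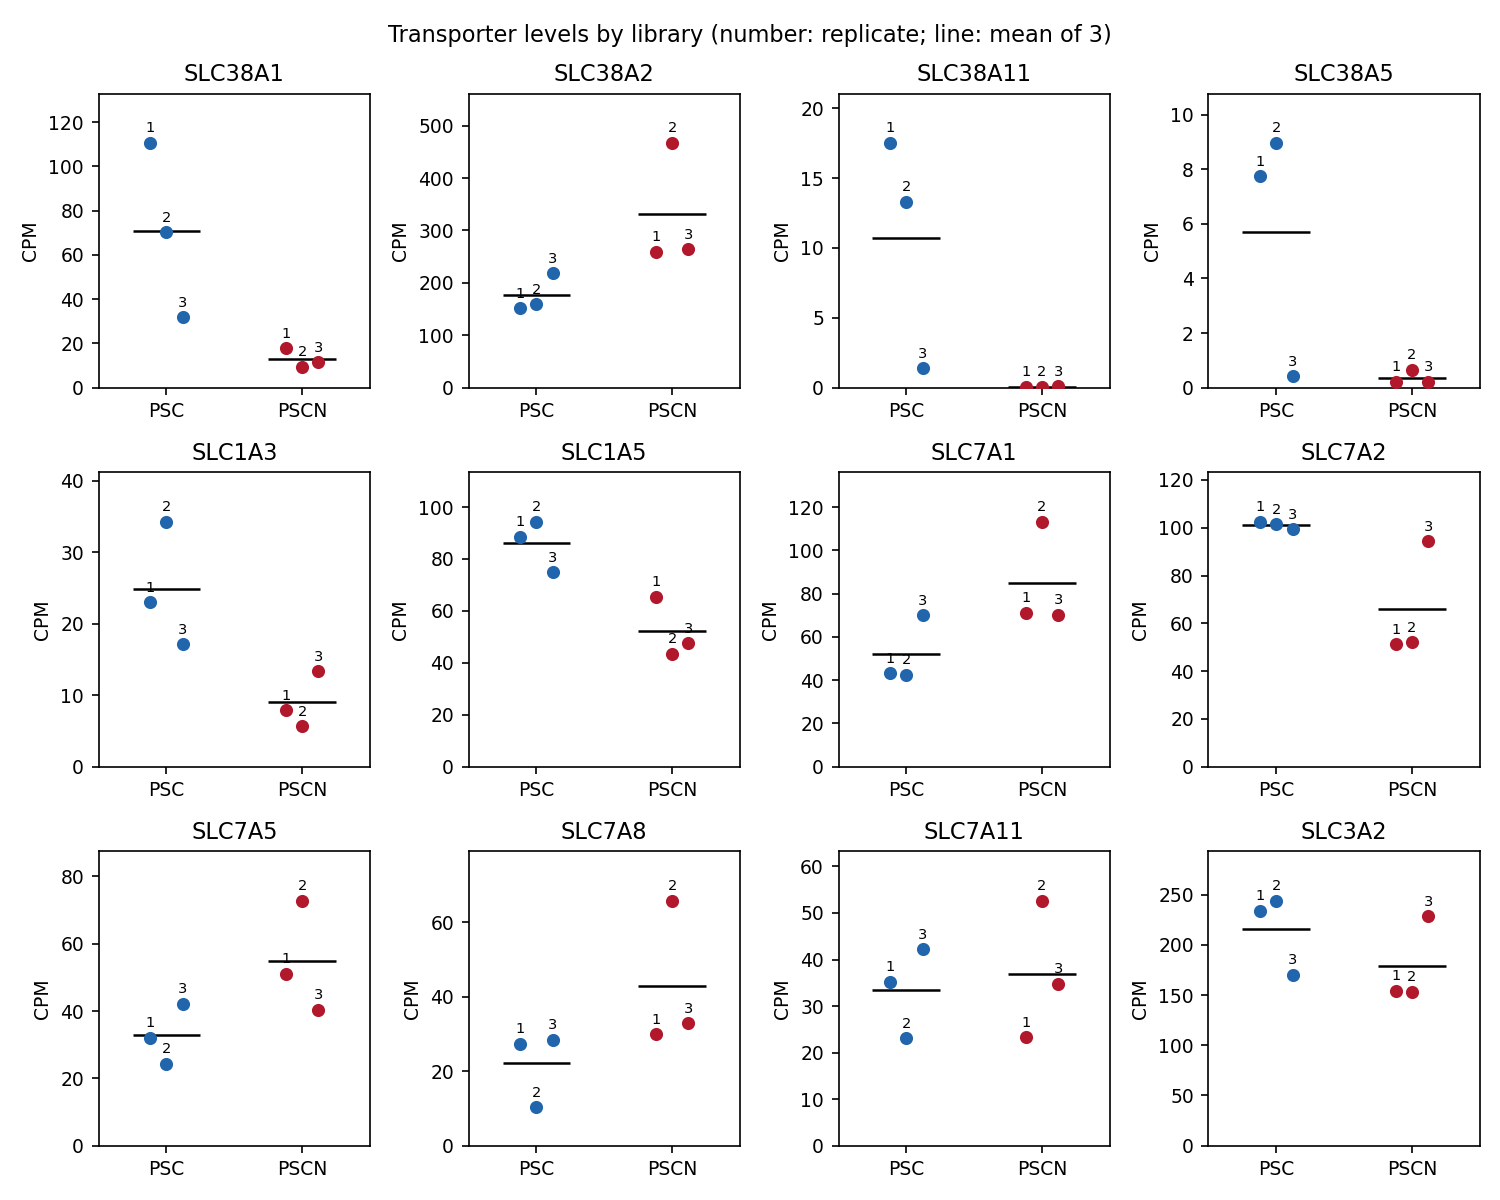
CPM of 12 transporter genes in each library, with the replicate number beside each point and a line at the mean of 3, on linear axes from 0. SLC38A1 and SLC38A2 separate the groups in opposite directions, and PSC library 3 lies nearest to PSCN in SLC38A1, SLC38A2, SLC38A11 and SLC38A5.

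Promoters were read from RefSeq (GRCm38.p6), which held 31 of the 42 members. The 250 bases before the transcription start were searched on both strands for TGATGNAA, the shared part of the C/EBP-ATF elements that ATF4 binds, for TGACNNNGC, the core of the antioxidant response element bound by NRF2, and for the E-box CACGTG. These members have 42 windows, since some have several starts. No window reached past its own start, so a motif that lies only further downstream was not looked for. The first motif was in 3 of the 42 (of SLC7A11 and SLC7A7) and in 3.45% of all 32851 windows. The second was in 4 of the 42 (of SLC38A2, SLC7A1, SLC7A6 and SLC43A1) and in 10.2% of all windows, and the third in 7 of the 42 and in 6.02% of all. The sequences of 4 members are shown because they were the higher genes of smallest p with an entry (SLC38A2 and SLC7A1), a known ATF4 and NRF2 target whose groups overlapped (SLC7A11), and the most different gene (SLC38A11). Capitals mark a match to one of the motifs, each sequence runs 5′ to 3′ along its gene, which lies on the minus strand in all 4, and a match is a run of letters and not a shown binding site.
SLC38A2, chr15:96699729-96699978: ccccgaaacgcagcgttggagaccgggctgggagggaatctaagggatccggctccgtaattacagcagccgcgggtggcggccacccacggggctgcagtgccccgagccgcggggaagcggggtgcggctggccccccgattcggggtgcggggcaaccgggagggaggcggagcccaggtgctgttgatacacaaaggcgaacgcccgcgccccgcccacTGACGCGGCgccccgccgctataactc
SLC7A1, chr5:148399905-148400154: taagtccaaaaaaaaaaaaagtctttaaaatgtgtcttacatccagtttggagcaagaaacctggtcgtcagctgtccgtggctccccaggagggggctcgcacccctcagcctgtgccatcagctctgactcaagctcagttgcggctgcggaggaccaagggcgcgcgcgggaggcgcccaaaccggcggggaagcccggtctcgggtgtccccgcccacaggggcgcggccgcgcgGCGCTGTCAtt
SLC7A11, chr3:50443614-50443863: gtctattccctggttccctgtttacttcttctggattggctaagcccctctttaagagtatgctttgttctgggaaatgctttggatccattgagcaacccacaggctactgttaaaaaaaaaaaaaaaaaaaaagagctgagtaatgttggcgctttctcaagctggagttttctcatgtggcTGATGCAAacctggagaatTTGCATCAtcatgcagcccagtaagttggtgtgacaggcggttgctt
SLC38A11, chr2:65364027-65364276: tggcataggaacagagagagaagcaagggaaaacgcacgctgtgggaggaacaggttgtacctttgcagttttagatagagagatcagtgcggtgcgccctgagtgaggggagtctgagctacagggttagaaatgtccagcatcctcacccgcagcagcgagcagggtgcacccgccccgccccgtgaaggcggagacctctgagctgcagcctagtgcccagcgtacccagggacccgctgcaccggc
The SLC38A2 window has TGACGCGGC from 27 to 19 bases before the start, and the SLC7A1 window has GCGCTGTCA, the same core on the other strand, from 11 to 3 bases before it. SLC7A11 has TGATGCAA from 66 to 59 bases before its start and the reversed TTGCATCA from 47 to 40, while SLC38A11 has none of the 3 motifs. G and C made up 72.0% of the SLC38A2 window, 62.4% of that of SLC7A1, 60.8% of that of SLC38A11 and 43.2% of that of SLC7A11.

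Among the cationic carriers of SLC7A, which bring arginine and lysine into the cell, SLC7A1 was higher and SLC7A2 lower in PSCN. SLC7A1 stood at 43.3, 42.5 and 69.9 CPM in PSC against 71.1, 113.3 and 70.2 in PSCN. The groups did not overlap, but PSC library 3 was only just below PSCN library 3 (log2 fold change 0.71, SE 0.29, adjusted p = 0.235 with edgeR). Without PSCN library 2 the log2 fold change was 0.40. SLC7A2, whose product is known for arginine supply in macrophages and hepatocytes, stood at 102.6, 101.4 and 99.4 CPM in PSC against 51.2, 52.1 and 94.4 in PSCN. PSC varied little (101 ± 1.63 CPM, SD of 3 libraries), while PSCN library 3 came close to it (log2 fold change -0.62, SE 0.27, adjusted p = 0.244 with edgeR). Without PSCN library 3 the log2 fold change was -0.99. Reads of SLC7A1 came to 0.422, 0.419 and 0.703 times those of SLC7A2 in PSC against 1.39, 2.17 and 0.744 times in PSCN, a ratio chosen after the levels were seen.

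SLC7A4, a family member without a settled substrate, was at 22.9, 9.26 and 3.43 CPM in PSC against 5.92, 2.13 and 3.64 in PSCN. Its log2 fold change of -1.61 (SE 0.75) was -0.70 without PSC library 1, the highest of all libraries. SLC7A14 stood at 0.177 to 1.38 CPM in PSC against 0 to 0.0698 in PSCN, from 13 to 102 and 0 to 5 reads, and the groups did not overlap. DESeq2 and limma-voom with weights called it lower (adjusted p = 0.00796 and 0.0471, in a range of 0.00796 to 0.438 over 13 alternatives). SLC7A3 differed by -0.15 (SE 0.38) on the log2 scale.

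SLC3A2, the heavy chain that carries 6 of the SLC7A light chains to the membrane, was the most abundant member in reads per kilobase of exon. It stood at 61.3 ± 11.3 CPM per kilobase in PSC against 50.7 ± 12.2 in PSCN (SD of 3 libraries each). Its library values in CPM were 234.3, 244.3 and 170.5 in PSC against 154.3, 153.5 and 228.5 in PSCN, so the groups overlapped (log2 fold change -0.28, SE 0.24, adjusted p = 0.514 with edgeR, or -0.51 without PSCN library 3). The other heavy chain, SLC3A1, which joins SLC7A9 in kidney and gut, was at or below 0.409 CPM in each library, with at most 31 reads.

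Of the SLC3A2 light chains, SLC7A5 brings in leucine and other large neutral amino acids and is the usual partner in proliferating cells. SLC7A5 stood at 32.1, 24.3 and 42.2 CPM in PSC against 51.0, 72.8 and 40.4 in PSCN. PSC library 3 was above PSCN library 3, so the groups overlapped (log2 fold change 0.74, SE 0.30, unadjusted p = 0.0489, adjusted p = 0.229 with edgeR). SLC7A8, a light chain for a broad range of neutral amino acids, stood at 27.4, 10.3 and 28.5 CPM in PSC against 29.9, 65.8 and 32.9 in PSCN. Its groups came close without overlapping, and PSCN library 2 was far above the others (log2 fold change 0.96, SE 0.49). Without PSCN library 2 the values were 0.43 for SLC7A5 and 0.47 for SLC7A8.

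SLC7A11, the cystine and glutamate exchanger that supplies cysteine for glutathione, overlapped widely, at 35.2, 23.0 and 42.3 CPM in PSC against 23.3, 52.7 and 34.8 in PSCN (log2 fold change 0.14, SE 0.36). SLC7A6 and SLC7A7, which exchange arginine or lysine for neutral amino acids, had log2 fold changes of -0.21 (SE 0.27; -0.55 without PSCN library 1) and -0.04 (SE 0.46). SLC7A10, a carrier of serine, alanine and glycine, had 415, 587 and 5 reads in PSC libraries 1, 2 and 3 against 0, 40 and 10 in PSCN libraries 1, 2 and 3. PSC library 3 was therefore among the PSCN libraries in SLC7A10 (log2 fold change -4.14, SE 1.93, or -4.71 without PSC library 3).

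Summed per kilobase, the 6 light chains came to 35.4, 27.4 and 32.7 CPM in PSC against 41.5, 45.3 and 29.9 in PSCN. That was 0.533, 0.396 and 0.678 times the level of SLC3A2 per kilobase in PSC against 0.950, 1.04 and 0.462 in PSCN. PSCN library 3 had a ratio inside the PSC range, so the groups overlapped. SLC7A5 made up 23.9 to 34.8% of the light chains in PSC against 33.2 to 43.4% in PSCN. SLC7A10 made up 7.50 and 13.4% in PSC libraries 1 and 2 and at most 0.647% in the other 4.

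**Figure D3:**
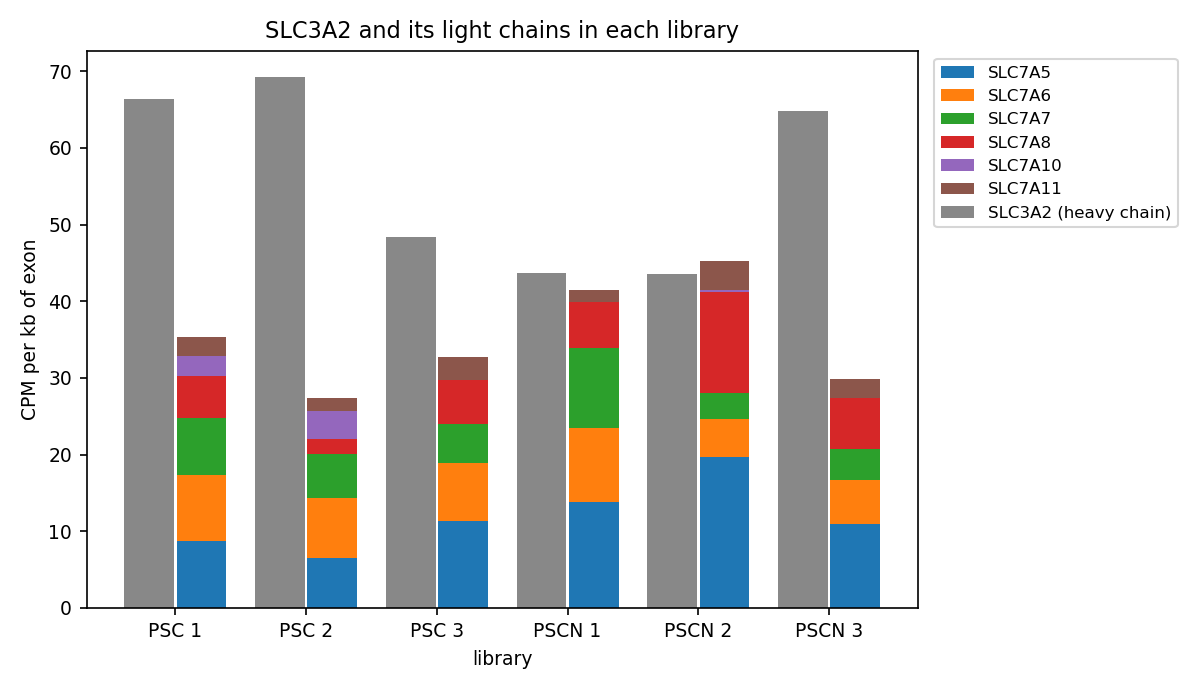
CPM per kilobase of exon of the heavy chain SLC3A2 (grey) and, stacked beside it, its 6 light chains in each library, from 0. The light chain stack passes the heavy chain bar in PSCN library 2 (a ratio of 1.04), lies just below it in PSCN library 1 (0.950) and is at most 0.678 of it in the other 4.

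In the SLC1A family, the glutamine carrier SLC1A5 and the glutamate carriers SLC1A3 and SLC1A2 were lower in each PSCN library. SLC1A5, which exchanges glutamine and other small neutral amino acids, stood at 88.7, 94.4 and 74.9 CPM in PSC against 65.4, 43.4 and 47.5 in PSCN. The groups did not overlap (86 ± 10 against 52.1 ± 11.7 CPM, SD of 3 libraries each). The log2 fold change was -0.72 (SE 0.20, adjusted p = 0.190 with edgeR), with adjusted p of 0.0196 in DESeq2 and 0.0364 in limma-voom with weights, in a range of 0.0196 to 0.438 over 14 alternatives. SLC1A3 stood at 23.0, 34.3 and 17.1 CPM in PSC against 7.93, 5.66 and 13.4 in PSCN, without overlap. Its log2 fold change was -1.46 (SE 0.41, adjusted p = 0.190 with edgeR), with adjusted p of 0.0162 in DESeq2 and 0.0429 in limma-voom with weights, in a range of 0.0162 to 0.438.

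SLC1A2, the main glutamate carrier of astrocytes, was at 2.71, 2.23 and 1.38 CPM in PSC against 0.292, 0.494 and 1.21 in PSCN (log2 fold change -1.66, SE 0.61). SLC1A1, which carries glutamate and cysteine, had the opposite sign and overlapping groups (log2 fold change 0.43, SE 0.42), with 0.058 without PSCN library 2 and 0.78 without PSCN library 1. SLC1A4, a carrier of alanine, serine and cysteine and the family member with the most reads, stood at 69.1, 89.2 and 75.6 CPM in PSC against 109.7, 33.4 and 118.4 in PSCN. PSCN library 2 was the lowest and the other PSCN libraries were the highest of all 6, with a log2 fold change of 0.16 (SE 0.46). Without PSCN library 2 it was 0.50, and without PSCN library 3 it was -0.15.

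The SLC36A carriers, found at lysosomes and the cell surface, had overlapping groups in each tested gene. SLC36A4 had the most reads per library on average, at 47.4, 36.0 and 27.3 CPM in PSC against 36.6, 29.2 and 29.3 in PSCN (log2 fold change -0.22, SE 0.24). SLC36A1, which moves amino acids out of lysosomes, varied widely within each group, from 10.7 to 55.1 CPM in PSC against 9.35 to 45.4 in PSCN. Its log2 fold change of -0.82 (SE 0.84) turned to 1.02 with the sex taken from XIST as a covariate, a fit in which PSC has 1 library taken as male. It ran from -1.99 without PSCN library 2 to -0.45 without PSC library 3. SLC36A2 ranged from 6.48 to 14.3 CPM in PSC against 4.65 to 23.1 in PSCN.

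Among the sodium-independent SLC43A carriers, SLC43A3, which is known to carry purine bases, had the most reads. It stood at 168.4, 84.1 and 23.9 CPM in PSC against 44.7, 42.0 and 36.9 in PSCN. PSC library 3 was the lowest of all 6, and the log2 fold change of -1.16 (SE 0.64, adjusted p = 0.327 with edgeR) was -1.60 without it (adjusted p = 0.0475) and -0.39 without PSC library 1, in a range of adjusted p of 0.0475 to 0.749 over 14 alternatives. SLC43A2, a carrier of leucine and other large neutral amino acids, was at 55.7 to 86.2 CPM in PSC against 61.4, 6.85 and 40.6 in PSCN. Its log2 fold change was -1.04 (SE 0.72), or -0.60 without PSCN library 2 and -1.64 without PSCN library 1. SLC43A1, a carrier of similar substrates, was at or below 4.72 CPM in each library (log2 fold change 0.21, SE 0.63).

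Per family, the tested members of SLC38A had a median log2 fold change of -1.05 (10 genes, 3 positive), those of SLC43A -1.04 (3 genes, 1 positive), SLC1A -0.72 (5 genes, 2 positive), SLC3A -0.60 (2 genes, 0 positive), SLC36A -0.22 (3 genes, 0 positive) and SLC7A -0.15 (11 genes, 4 positive). The largest negative values came from genes of few reads in PSCN. With only the 26 members whose higher group averaged 5 CPM or more, the median was -0.22, against 0.06 over the 13822 genes of that level. By family it was then -0.25 for SLC38A (8 genes), -1.10 for SLC43A (2), -0.28 for SLC1A (4), -0.28 for SLC3A (SLC3A2 alone), -0.22 for SLC36A (3) and 0.053 for SLC7A (8), where the sign turned. This cut does not remove every gene of few reads in PSCN. SLC38A11 and SLC38A5 pass it by their PSC means of 10.7 and 5.71 CPM, with 0.073 and 0.369 CPM in PSCN. The summed level of all 42 members was 1446 ± 155 CPM in PSC against 1368 ± 62.2 in PSCN (SD of 3 libraries each), with overlapping groups.

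**Figure D4:**
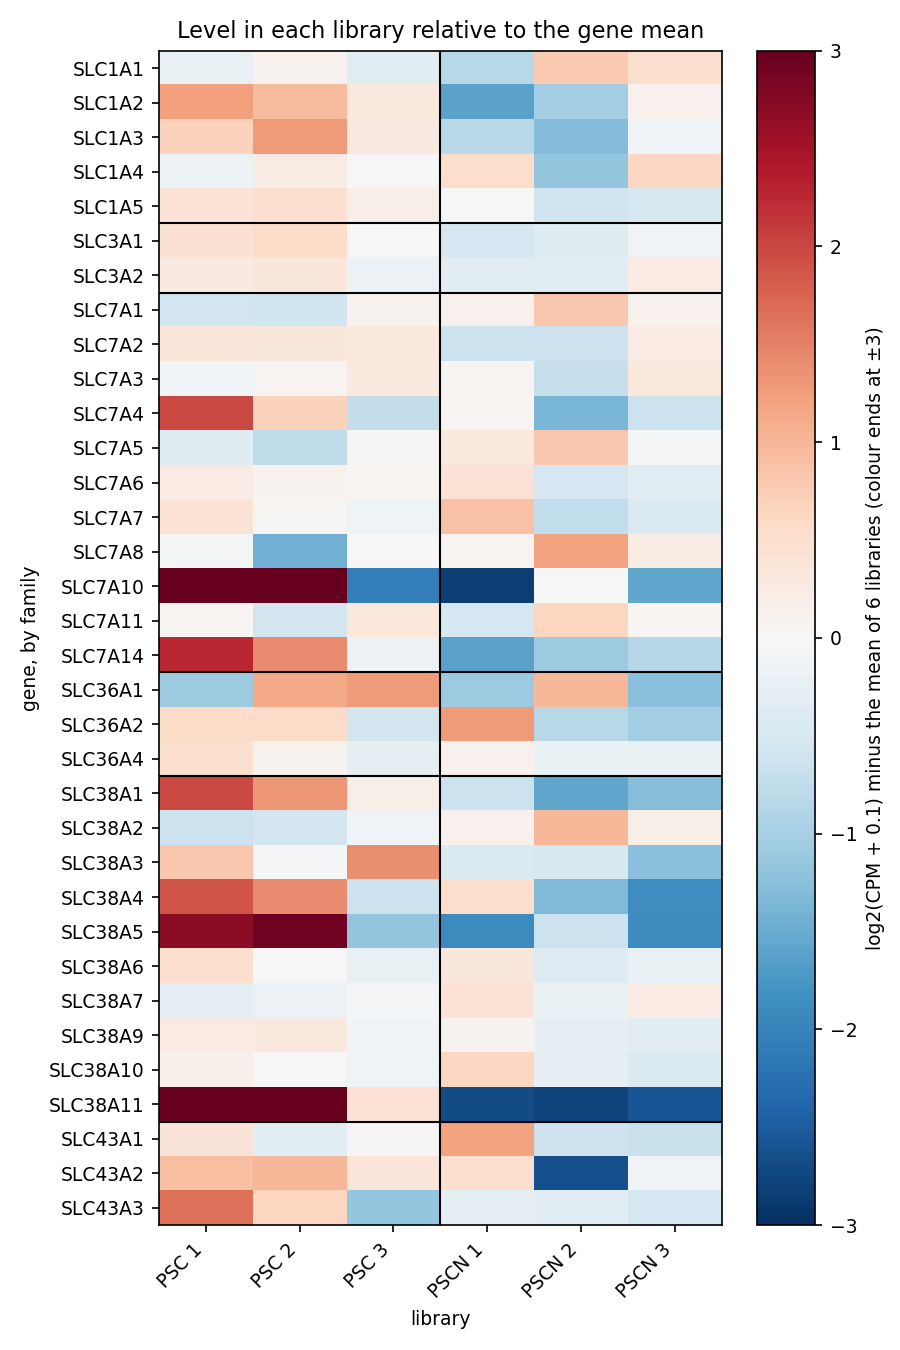
Level of each tested transporter gene in each library as log2(CPM + 0.1) minus the gene's mean over the 6 libraries, with genes in family order and colours ending at 3 in either direction. SLC38A11, SLC38A5 and SLC7A10 are high in PSC libraries 1 and 2, and SLC36A1 is high in PSC libraries 2 and 3 and PSCN library 2.

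Ranked by CPM per kilobase of exon over all libraries, SLC3A2 came first (56 CPM per kilobase), followed by SLC38A2 (28.7), SLC1A4 (21), SLC38A10 (18.5), SLC1A5 (16.5), SLC43A3 (14.9), SLC7A5 (11.8) and SLC7A2 (9.14). In PSC alone SLC38A2 (20 ± 4.14), SLC1A4 (19.9 ± 2.61), SLC38A10 (18.2 ± 1.89), SLC1A5 (20.6 ± 2.4) and SLC43A3 (20.6 ± 16.3) lay within each other's spread (CPM per kilobase, SD of 3 libraries). In PSCN SLC38A2 stood at 37.4 ± 13.5, SLC1A4 at 22.2 ± 11.9 and SLC1A5 at 12.5 ± 2.8 CPM per kilobase, and neighbouring ranks still overlapped.

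Cell type markers moved with several of these genes. Club cell markers, of the secretory airway cells, summed to 27560, 18353 and 3792 CPM in PSC libraries 1, 2 and 3 against 572 to 1959 CPM in PSCN. Of these, 7 of 8 were lower in every PSCN library, against 13.4% of all genes tested, a share that also applies to the lists that follow. Ciliated cell markers summed to 973, 440 and 42.6 CPM in PSC against 30.9 to 71.2 in PSCN, with 2 of 10 lower in every PSCN library. Alveolar type 2 markers summed to 7067, 12754 and 1578 CPM in PSC against 2257 to 2955 in PSCN (2 of 8 lower in every PSCN library), and endothelial markers to 1700, 982 and 307 CPM in PSC against 746, 628 and 432 in PSCN (0 of 8). PSC library 3 was likewise the lowest of its group in SLC38A11, SLC38A1, SLC38A5, SLC7A10 and SLC43A3, still above all PSCN libraries in SLC38A11 and SLC38A1, inside the PSCN range in SLC38A5 and SLC7A10 and below it in SLC43A3. The part of these cell types in those results was not tested. No marker of these 4 lists was at 0 in all libraries. B and plasma cell markers did not follow that order: they summed to 507 to 596 CPM in PSC against 238 to 304 in PSCN, and 8 of 8 were lower in every PSCN library. Mast cell markers summed to 126 to 152 CPM in PSC against 93.1 to 172 in PSCN (4 of the 5 tested lower in every PSCN library), with MS4A2, FCER1A, TPSB2, CMA1 and MCPT4 at 0 in at least 1 PSCN library. Only 1 of the 5 averaged 5 CPM or more in its higher group. Its log2 fold change was -0.14, against a median of -4.24 for the 5, so the sum mostly reflects that gene. SLC1A5 and SLC1A3, like the B and plasma cell markers, were lower in every PSCN library. Within PSC, however, both genes were lowest in library 3 (74.9 and 17.1 CPM), where the B and plasma cell sum was highest (596 CPM). The part of B and plasma cells was not tested.

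Squamous differentiation markers ran the other way, at 128, 1006 and 3979 CPM in PSC against 7178 to 14707 in PSCN. Of these, 14 of 16 were higher in every PSCN library, against 15.2% of all genes tested. SLC38A2 and SLC7A1 were likewise lowest in PSC libraries 1 and 2 and highest in PSCN library 2, where the squamous sum was 14707 CPM. Basal squamous markers summed to 1344 to 8849 CPM in PSC against 10805 to 27656 in PSCN (7 of 11 higher in every PSCN library). Macrophage and monocyte markers, of a cell type that uses SLC7A2 and SLC7A7, summed to 423 to 1188 CPM in PSC against 488 to 1023 in PSCN (0 of 9 without overlap in either direction). Fibroblast markers reached 41539 CPM in PSCN library 1 and at most 3984 CPM elsewhere. The part of these cell types was not tested either, and in biopsies fewer cells of a type and less RNA per cell cannot be told apart.

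**Figure D5:**
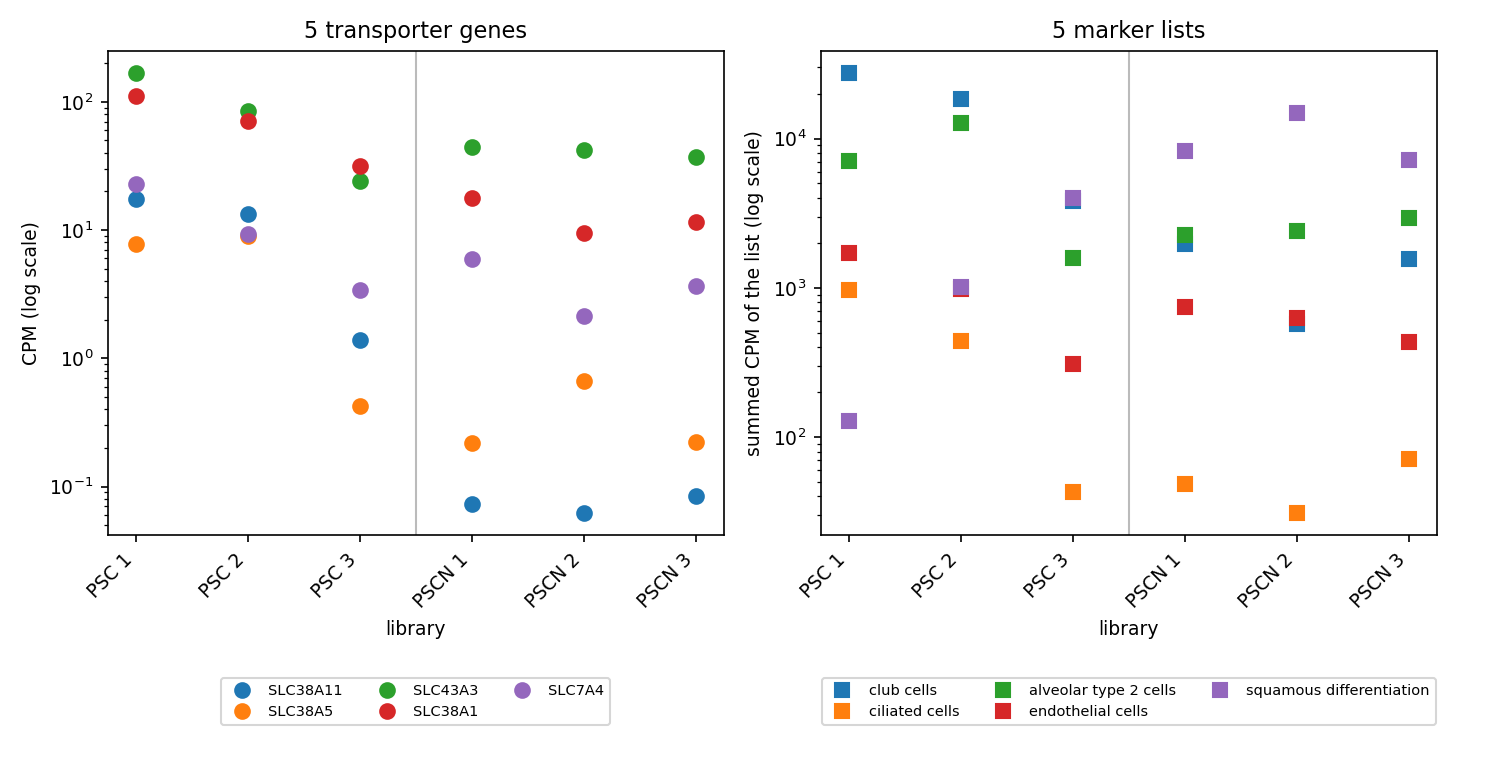
CPM of 5 transporter genes (left) and summed CPM of 5 lists of cell type markers (right) in each library, on log axes. SLC38A11, SLC38A5, SLC43A3, SLC38A1 and SLC7A4 are all lower in PSC library 3 than in PSC libraries 1 and 2. So are the club, ciliated, alveolar type 2 and endothelial sums, while the squamous sum is higher there, at 3979 CPM.

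Genes that work with the transporters were summarised from 5 lists, in which 0 members passed the adjusted threshold of edgeR. In the amino acid deprivation response, which ATF4 controls, 11 of 22 genes were higher and 0 lower at an unadjusted p under 0.05 (9.48% and 12.2% of all genes), with a median log2 fold change of 0.68. The asparagine synthetase ASNS stood at 19.7, 24.9 and 32.1 CPM in PSC against 67.5, 62.7 and 62.4 in PSCN (log2 fold change 1.33, SE 0.20, adjusted p = 0.138 with edgeR), CHAC1, which degrades glutathione, had 2.53 (SE 0.35), PPP1R15A 0.95 (SE 0.22) and ATF4 itself 0.63 (SE 0.17). Among 30 genes by which lysosomal amino acids signal to mTORC1, 2 were higher and 3 lower at that level (median 0.18). The Rag GTPase RRAGB stood at 3.79, 3.89 and 1.95 CPM in PSC against 0.292, 0.278 and 0.377 in PSCN (log2 fold change -3.34, SE 0.42, adjusted p = 0.137 with edgeR), SESN3 had -1.05 (SE 0.26), RRAGD -1.80 (SE 0.56) and the scaffold LAMTOR1 0.54 (SE 0.17).

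In glutamine and glutathione metabolism, 4 of 17 genes were higher and 3 lower at an unadjusted p under 0.05 (median -0.12). The shares over all genes tested, here and for the lists that follow, were 9.48% and 12.2%. The log2 fold change was 1.91 (SE 0.56) for the glutaminase GLS2, 0.85 (SE 0.25) and -0.94 (SE 0.29) for the transaminases GPT2 and GPT, and -0.42 (SE 0.12) for GCLM, a subunit of the glutathione synthesis enzyme. The list of 12 NRF2 genes did not hold GCLM or SLC7A11, which were counted elsewhere. Of these 12, 4 were higher and 0 lower (median 0.56), with log2 fold changes of HMOX1 at 1.25 (SE 0.26), SRXN1 at 0.80 (SE 0.19), PGD at 0.86 (SE 0.24) and FTH1 at 0.72 (SE 0.23). Of 22 tested amino acid carriers of other families, 0 were higher and 6 lower (median -0.10). Log2 fold changes were -3.48 (SE 0.77) for the neutral amino acid carrier SLC6A15, -0.89 (SE 0.23) for the taurine carrier SLC6A6, -1.60 (SE 0.42) for the mitochondrial glutamate carrier SLC25A18 and -1.21 (SE 0.39) for SLC6A20B. SLC6A6 stood at 418.5, 626.2 and 486.6 CPM in PSC against 324.9, 233.8 and 269.6 in PSCN, without overlap.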

How the data were processed

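Total RNA of tumour biopsies was sequenced in stranded libraries of paired reads of 76 nt, per the labels' protocols. Trimmomatic, HISAT2, StringTie and DESeq2 are named, without versions, in the submitters' processing notes, and the genome was GRCm38. Whether strand was used in counting is not stated there, and exons of 10 members overlap a gene on the other strand (SLC1A1, SLC1A2, SLC3A1, SLC7A2, SLC7A4, SLC7A7, SLC7A10, SLC38A9, SLC38A10 and SLC43A2), so reads of such pairs cannot be told apart. The authors deposited estimated counts, already whole numbers, by symbol. They sit beside the authors' own DESeq2 results: a mean signal per gene, log2 fold changes and their errors, the Wald score, p-values and adjusted p-values. Each column was assigned to a library by its letter and number, which the labels do not spell out. All 42 members matched GENCODE M21, which gave coordinates and exon lengths.

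After filterByExpr (21201 genes kept) and TMM scaling, the main test was edgeR 4.0.16 (quasi-likelihood F, R 4.3.3), adjusted by Benjamini-Hochberg over every gene kept, at a threshold of 0.05. The SE of a log2 fold change is its size over the square root of F. No exact permutation test was run, since 3 libraries against 3 reach a two-sided p of 0.1 at best. Alternatives were other normalizations and filters, DESeq2 1.42.0, voom with quality weights from limma 3.58.1, each library left out, a block for replicate numbers, and mouse sex, taken from XIST above or below 100 CPM. Fits were tested on simulated data, where DESeq2 called far more unchanged genes than the other tools and also found more of the changed ones. Without molecular identifiers, reads are not independent molecules.

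The members and lists were chosen with earlier results of these data known. Values in every library are given for SLC3A2, SLC7A5, SLC7A11 and SLC38A9, for the member with the most reads in each family, and for members that average 5 CPM or more in the higher group and have an unadjusted p under 0.05 or groups without overlap. Those of SLC1A2, SLC7A4, SLC7A10, SLC38A4, SLC43A2 and the related genes, and all ratios, were chosen after they were seen. Up to 4 genes with the smallest p are named from each related list.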

Additional observations from a re-analysis of the deposited data

How the results depend on the processing

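Among transporter genes, no alternative called a higher member, and 0 lower members were called by edgeR with RLE or upper quartile scaling, other filters, a replicate block or sex as a covariate, against 7 with DESeq2 and 5 with limma-voom with weights. Over all genes, 1 higher and 0 lower genes became 1115 and 1830 with DESeq2, 1788 and 1238 with limma-voom with weights, and 3 and 0 with a filter of 1 CPM in 3 libraries. With sex as a covariate, 0 genes were called higher over all genes, and 0 members were higher at an unadjusted p under 0.05. That count of higher members, 2 as reported, was 1 with RLE or upper quartile scaling, with no filter and with the stricter filter, and 4 with limma-voom with weights. The stricter filter left 5 lower members at that p, and moved the median of SLC38A to -0.29 and of SLC3A to -0.31, since it tests fewer genes of few reads. Limma-voom with weights moved the SLC36A median to -0.89.

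Replicate numbers are shared by the groups but do not pair the libraries: deviations from the group means correlated at 0.19, -0.05 and 0.02 for numbers 1, 2 and 3, and PSC libraries 2 and 3 did not correlate best with their own number. With a replicate block edgeR called 0 genes higher and 0 lower over all genes, 1 member was higher at an unadjusted p under 0.05, and SLC1A4 (-0.0076), SLC38A10 (-0.015) and SLC43A1 (-0.068) changed sign. Other changes of sign were SLC1A4 (-0.029), SLC38A10 (-0.12) and SLC43A1 (-0.035) with limma-voom with weights, SLC38A10 with upper quartile scaling (-0.019), and SLC7A3 (0.054), SLC36A1 (1.02), SLC38A10 (-0.092) and SLC43A1 (-0.13) with sex as a covariate. The cause of these changes was not tested.

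Leaving out each library in turn, calls over all genes ran from 0 to 751 higher and 0 to 1195 lower, members called lower from 0 to 4, members higher at an unadjusted p under 0.05 from 0 to 3, and members wholly below PSC from 9 to 18. The highest of these came without PSC library 3, except that of members below PSC, which came without PSCN library 1. Without that library 22.0% of all genes lay wholly below PSC, against 13.4% with all 6 libraries. Medians ran from -0.62 to -0.24 over all tested members, -0.46 to -0.086 for SLC7A and -1.21 to -0.39 for SLC43A, and from -0.48 to 0.0042 for SLC36A, where the sign changed without PSC library 1. They ran from 0.38 to 0.65 for the NRF2 genes, 0.49 to 1.07 for the deprivation response, -0.20 to -0.039 for carriers of other families, -0.13 to 0.022 for glutamine and glutathione genes and 0.12 to 0.21 for mTORC1 sensing. Members whose sign changed ran from -0.15 to 0.50 (SLC1A4), -0.40 to 0.068 (SLC7A3), -0.70 to 0.20 (SLC7A7), -0.24 to 0.39 (SLC7A11), -1.21 to 0.26 (SLC36A2), -0.38 to 0.0042 (SLC36A4), -0.43 to 0.045 (SLC38A6), -0.32 to 0.22 (SLC38A10) and -0.73 to 0.50 (SLC43A1). With 3 libraries a group, a p that misses the threshold does not show that levels were alike.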

Other observations

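SLC36A1 was either low or high in a way that did not follow the genotype. The low level was 10.7, 10.5 and 9.35 CPM, for PSC library 1 and PSCN libraries 1 and 3, and the high one 49.4, 55.1 and 45.4 CPM, for PSC libraries 2 and 3 and PSCN library 2. Of the 13 genes with a mean of at least 1 CPM within 300000 bases of the SLC36A cluster on chromosome 11, GM2A stood at 107 to 186 CPM and ANXA6 at 120 to 306 CPM over the 6 libraries. FAT2, the next gene beyond SLC36A1, stood at 13.9, 50.8 and 130.9 CPM in PSC against 96.4, 182.7 and 73.1 in PSCN. These genes were chosen after their values were seen.

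Near SLC38A11 on chromosome 2, SCN3A (8.11, 11.6 and 2.57 CPM in PSC against 0.558 to 1.28 in PSCN) and GRB14 (63.6, 46.8 and 11.8 CPM in PSC against 5.44 to 17.1 in PSCN) had log2 fold changes of -3.03 (SE 0.66) and -1.96 (SE 0.71), while COBLL1 between them had one of -0.0041 (SE 0.20). Around SLC38A1, SLC38A2 and SLC38A4 on chromosome 15, AMIGO2 and PCED1B had log2 fold changes of -1.01 (SE 0.39) and -0.63 (SE 0.23), and ARID2 and SCAF11 -0.20 (SE 0.15) and 0.10 (SE 0.16).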
